A study of Homo sapiens with 16 samples.

Results

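The 2 wild-type lines of a study of U2OS cells were compared with each other across both of its experiments. U2OS is an established human osteosarcoma cell line that keeps wild-type p53. The study placed wild-type cells beside CRISPR/Cas9-edited cells that carry the W329G change in MDM2, and measured poly-A RNA by sequencing after DMSO, the vehicle, or after 5-fluorouracil (5-FU, 50 µM) for 24 h. Each genotype was labelled as cells #1 and cells #2, and each of 2 experiments, sequenced by different vendors, held 1 library per line and treatment. All groups used here were wild-type for MDM2 and were grown in DMEM with 10% serum, and none was untreated. The labels do not say whether a wild-type line is a single clone, so each line is 1 line and its libraries are repeat cultures of it. The 8 wild-type libraries of 16 in all were used: 2 treatments, 2 lines and 2 experiments.

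The 2 cell numbers do not appear to name the same line in both experiments, and the members were therefore arranged in 2 ways. In the joined arrangement, line A is cells #1 of experiment 1 with cells #2 of experiment 2, and line B is cells #2 of experiment 1 with cells #1 of experiment 2, 4 libraries each. This arrangement was chosen from the expression values, so values joined over the experiments are given as a description with no test. In the labelled arrangement the cell numbers stand as deposited. Tests were made within each experiment, where both arrangements compare the same 2 cultures and only the sign differs in experiment 2.

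p53 is a transcription factor that MDM2, a ubiquitin ligase and itself a p53 target, holds at a low level. 5-FU disturbs nucleotide supply and RNA processing and raises p53 activity in cells with an intact pathway. Lines kept apart from one stock of an osteosarcoma cell are known to drift in chromosome content and gene expression, and a cultured U2OS cell retains features of a bone matrix cell such as the type I collagen alpha-1 chain.

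The wild-type libraries held 24715999 to 56877328 assigned reads. Genes could be matched between the 2 deposited gene lists for 28724 genes, of which 16667 passed the filter on low counts. Mitochondrially encoded genes took 24.6 and 31.8% of matched reads in line A (DMSO, then 5-FU) and 13.7 and 17.6% in line B in experiment 1, and 19.9 to 24% in both lines in experiment 2. Some bone-cell transcripts were well expressed in every wild-type library: COL1A1, the type I collagen alpha-1 chain, at 3000 to 9030 CPM (counts scaled to a common library total), SPARC at 1660 to 4310, RUNX2 at 29.1 to 76.1 and SPP1 at 6.86 to 45. Others were low: COL1A2, the alpha-2 chain, at 0.238 to 8.93, ALPL at 1.11 to 8.09 and BGLAP at 0.123 to 0.659. The late bone gene IBSP was at 0 and SP7 was at most 0.0839. CD3E, a T-cell gene, was at 0. A list of 21 gut epithelial genes, chosen after its values were seen, summed to 134 to 301 CPM in the 4 wild-type libraries of experiment 1 and to 0.932 to 2.89 in those of experiment 2. PIGR, the epithelial receptor that carries antibodies across mucosa, was at 26.2 and 25.7 CPM in line A (DMSO, then 5-FU) and at 21.4 and 25.3 in line B in experiment 1, and at 0.116 to 0.296 in the wild-type libraries of experiment 2. In experiment 1 the list sum was 289 CPM in line A against 134 in line B with DMSO, and 192 against 301 with 5-FU. None of the 21 gut genes was called between the lines in experiment 1 and 1 was called in experiment 2. The line term is taken over both treatments, so it cannot show a difference that turns round between them. The part of the gut reads in other results was not tested.

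In each experiment the 2 wild-type lines differed in many genes, and the direction of most shared differences turned round when the labelled cell numbers were followed. In experiment 1, 2012 of 16667 genes (12.1%) passed edgeR's quasi-likelihood test at an adjusted p under 0.05, of which 1145 (6.87%) were higher in line A and 867 (5.2%) in line B. In experiment 2, 2674 genes (16%) passed, 1224 (7.34%) higher in line A and 1450 (8.7%) in line B. A gene that passes is said below to be called, and its difference is log2 of line A over line B within 1 experiment, with its standard error (SE), from 2 libraries of each line. These counts moved widely when 1 library was left out, from 591 to 3865 in experiment 1 and from 1826 to 5277 in experiment 2.

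771 genes (4.63%) were called in both experiments. Of these, 708 (4.25%) were higher in the same joined line, 319 in line A and 389 in line B, and 63 (0.378%) were higher in the same cell number. Across genes, the difference in experiment 1 had a Pearson correlation of -0.246 with that of experiment 2 when cell numbers were followed as labelled. Genes are not independent replicates, and the joining rests on this sign, so no p is attached. Differences seen under DMSO and under 5-FU correlated at 0.485 within experiment 1 and at 0.601 within experiment 2, against 0.186 to 0.291 between the experiments after joining.

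**Figure D1:**
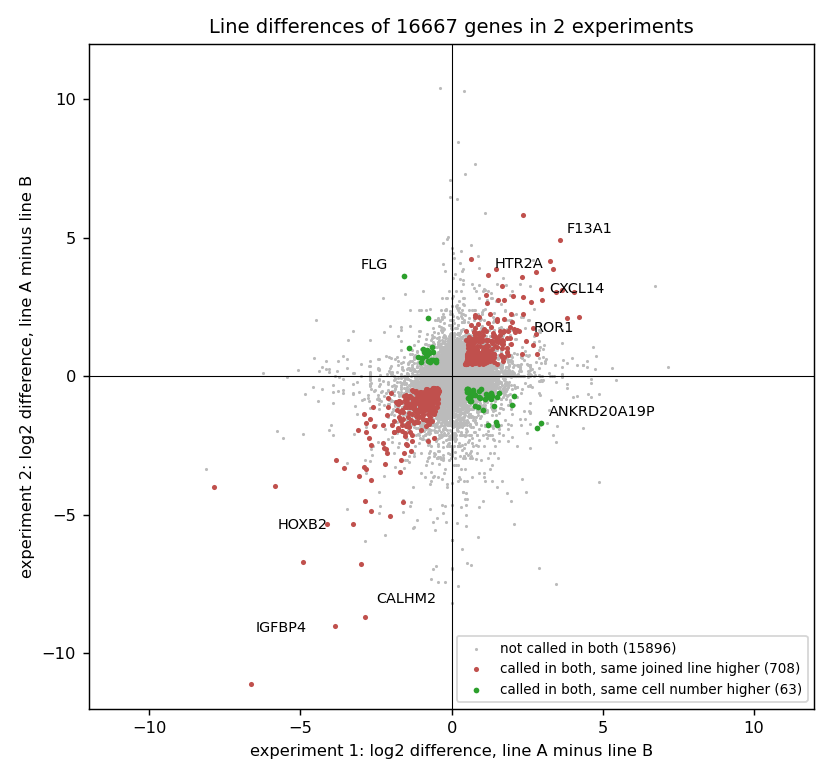
Each of 16667 points is a gene, with its log2 difference (line A minus line B) in experiment 1 on the x axis and in experiment 2 on the y axis. The 708 red genes, called in both experiments in 1 joined line, lie in the lower left and upper right, and the 63 green genes, called in both in 1 cell number, lie in the other 2 corners; the joining was chosen from this sign.

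A stricter set, used as the members below, had to differ at least 2-fold in 1 direction in all 4 pairs. It held 162 genes (0.972%) under the joined arrangement, 73 higher in line A (0.438%) and 89 in line B (0.534%), and 13 genes (0.078%) under the labelled one, 10 higher in cells #1 and 3 in cells #2. Of the 162 genes, 147 were protein-coding and 129 were also called in both experiments, from the same libraries that chose them. The least difference among the 4 pairs was 1.001 for RARRES2 and for CSF2 and 1.002 for CFI, just inside the limit, and 0.9977 for SBSN, 0.9976 for GAPDHP21 and 0.9871 for ADRA2B, just outside it. A fit over all 8 libraries with experiment and treatment as terms gave 1529 genes (9.17%) for the joined lines and 0 for the labelled lines. These counts restate the sign from which the joining was chosen and are no test of it. For the labelled lines 1400 genes had an unadjusted p under 0.05 and DESeq2 called 115.

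The genes that most set line A above line B had varied roles. CXCL14, a chemokine, and ROR1, a receptor tyrosine kinase-like receptor for WNT5A, were several-fold higher in line A in every pair, as was FMNL2, a formin that builds actin filaments at the cell edge. The largest joined differences in line A that met the naming rule also included F13A1 (the coagulation factor XIII A chain), PLCH1 (a phospholipase C), ADAMTS14 (a procollagen-trimming protease), CCR1 (a chemokine receptor), TNFAIP6 (a hyaluronan-binding protein), HTR2A (a serotonin receptor), KRT14 (a basal keratin) and the insulin growth factor-like genes IGFL3 and IGFL4.

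CXCL14 stood at 170 and 186 CPM in line A in experiment 1 (DMSO, then 5-FU, an order kept throughout) against 21.6 and 23.4 in line B. In experiment 2 it stood at 136 and 79.9 in line A against 18.9 and 12.7 in line B. The log2 difference was 2.98 ± 0.15 (SE, adjusted p = 1.26e-07) in experiment 1 and 2.75 ± 0.15 (adjusted p = 1.17e-07) in experiment 2. The 4 libraries of line A were all above the 4 of line B, and the 2 differences did not differ by test (0.23 ± 0.20, adjusted p = 0.536).

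ROR1 (chromosome 1, 63774022 to 64181498, plus strand, GRCh38) was at 106 and 60.9 CPM in line A against 20.8 and 12 in line B in experiment 1, and at 55 and 28 against 10.7 and 6.49 in experiment 2. Its log2 difference was 2.35 ± 0.15 (SE, adjusted p = 9.77e-07) in experiment 1 and 2.24 ± 0.15 (adjusted p = 1.07e-06) in experiment 2. Every line A library exceeded every line B library, and the level was lower under 5-FU than under DMSO in each of the 4 cultures. FMNL2 was at 34.7 and 42.8 CPM against 6.07 and 6.53 in experiment 1, and at 44.7 and 47.8 against 7.26 and 7.15 in experiment 2. Its log2 difference was 2.61 ± 0.16 (adjusted p = 6.27e-07) and then 2.68 ± 0.16 (adjusted p = 1.91e-07), with the lines again fully apart.

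Other line A genes were less even between experiments. F13A1 was at 7.15 and 14.7 CPM in line A in experiment 1 and at 0.845 and 1.26 in experiment 2, while line B had 0.483 and 1.44 and then 0.0549 and 0. In experiment 2 line B held 3 F13A1 reads against 81 in line A, a 35.2-fold difference with a counting interval of 11.6 to 174. PLCH1 ranged from 5.05 to 12.4 CPM in line A and from 0.476 to 1.15 in line B, with log2 differences of 3.66 ± 0.32 (adjusted p = 1.09e-05) and 3.11 ± 0.31 (adjusted p = 2.94e-05). The lines did not overlap for PLCH1, whereas the F13A1 level of line A in experiment 2 overlapped that of line B in experiment 1. HTR2A was called in both experiments but with unequal size, 1.19 ± 0.19 (adjusted p = 0.000941) and 3.65 ± 0.21 (adjusted p = 1.65e-07). IGFL3 showed the same pattern, 0.65 ± 0.18 (adjusted p = 0.0294) and 4.25 ± 0.23 (adjusted p = 1.17e-07), and its experiment 1 call was lost under DESeq2's test (adjusted p = 0.12) and without any 1 of the 4 libraries of that experiment (0.50 to 0.78). KRT14 was at 33.1 and 51.4 CPM in line A in experiment 1 against 9.6 and 8.05, and at 7.22 and 5.87 against 2.67 and 1.59 in experiment 2. Keratin 14 shares near-identical copies in the genome, so its count is uncertain. KRT5, the partner keratin of basal epithelium, was at 8.26 and 15.8 CPM in line A and 1.87 and 20.4 in line B there, and at most 0.41 in experiment 2, so it was lower in line A than in line B under 5-FU in experiment 1. The part of epithelial transcripts in the KRT14 difference was not tested.

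Among abundant transcripts, chosen after their values were seen, IGFBP5 and ENC1 were higher in line A. IGFBP5, a secreted binding protein for insulin-like growth factors, was at 1630 and 2400 CPM against 546 and 800 in experiment 1, and at 721 and 832 against 293 and 358 in experiment 2. Its log2 difference was 1.58 ± 0.12 (SE, adjusted p = 5.09e-06) and then 1.26 ± 0.12 (adjusted p = 2.57e-05). The lines were apart within each experiment but overlapped across experiments. ENC1, an actin-binding kelch protein, was at 652 and 956 CPM against 193 and 243, and at 522 and 714 against 171 and 223, with no overlap.

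Line B was marked by genes that line A expressed little or not at all. EPOP, a partner of Polycomb repressive complex 2, and the homeobox genes DLX4 and HOXB2 were below 1 CPM in all 4 line A libraries and above it in all 4 of line B. IGFBP4, another binding protein for insulin-like growth factors, was far lower in line A in both experiments. BST2 (tetherin, an interferon-induced membrane protein), MMP3 (stromelysin-1, a matrix protease), RBFOX3 (the neuronal splicing factor NeuN) and EPHA5 (an ephrin receptor) followed the same direction. Of the 15 genes named for line B, 7 lie on chromosome 17, which holds 6.16% of the tested genes. Across all 89 line B genes of the stricter set the share was smaller. Of those, 12 lie on chromosome 17 and 12 on chromosome 7, which holds 4.9% of the tested genes.

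IGFBP4 lies on chromosome 17 (40443461 to 40457731, plus strand, GRCh38) and was many-fold higher in line B in both experiments. It was at 68.1 and 130 CPM in line B in experiment 1 and at 71.5 and 81.8 in experiment 2. In line A it was at 5.5 and 7.59 CPM in experiment 1, and at 0.116 and 0.169 in experiment 2. The log2 difference was -3.87 ± 0.18 (SE, adjusted p = 7.22e-08) in experiment 1 and -9.02 ± 0.27 (adjusted p = 2.25e-10) in experiment 2, and the 2 differences were themselves unequal (5.15 ± 0.36, adjusted p = 1.87e-05). No line A library reached the lowest line B library. Line B kept a like level in the 2 experiments, and the change between experiments lay in line A.

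The bases just before the RefSeq starts of IGFBP4 (line B) and ROR1 (line A) are shown because each gene separated the 2 lines in every library and the windows carry many CpG dinucleotides, the sites that DNA methylation uses. Each window is 250 bases of GRCh38.p14 up to the base before the start, in transcript direction, and capitals mark CpG.
IGFBP4, chr17:40443200-40443449, plus strand: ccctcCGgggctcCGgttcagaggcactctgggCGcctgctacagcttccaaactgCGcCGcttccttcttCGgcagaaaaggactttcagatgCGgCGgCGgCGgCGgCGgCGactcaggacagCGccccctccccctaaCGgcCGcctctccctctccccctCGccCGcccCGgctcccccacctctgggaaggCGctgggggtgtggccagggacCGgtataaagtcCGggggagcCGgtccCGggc
ROR1, chr1:63773767-63774016, plus strand: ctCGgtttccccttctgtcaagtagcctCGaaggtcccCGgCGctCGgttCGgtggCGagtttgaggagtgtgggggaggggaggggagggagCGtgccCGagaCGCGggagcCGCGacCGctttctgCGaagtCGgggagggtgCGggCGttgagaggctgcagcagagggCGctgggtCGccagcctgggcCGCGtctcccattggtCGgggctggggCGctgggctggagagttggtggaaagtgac
Each window holds 24 CpG, a count reached by 23.7% of 35116 such windows. The count describes the sequence only, and methylation was not measured. RefSeq windows were matched for 120 of the 162 members, and EPOP, DLX4 and HOXB2 were not among the entries used.

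EPOP was at 7.31 and 7.97 CPM in line B in experiment 1 and at 11.9 and 10.8 in experiment 2, against 0.164, 0.335, 0.0874 and 0.121 in line A. Its log2 difference was -4.93 ± 0.33 (adjusted p = 1.44e-06) and then -6.70 ± 0.34 (adjusted p = 8.93e-08). DLX4 had 133 reads in line B and 1 in line A in experiment 1, a 112-fold difference per total reads with a counting interval of 19.7 to 4440. In experiment 2 it had 748 reads in line B and none in line A, which makes it at least 192-fold higher against a floor of 3 reads over the group. HOXB2 was at 4.26 and 7.73 CPM in line B in experiment 1 and at 14.7 and 16.8 in experiment 2, while line A stayed between 0.291 and 0.797. Its differences, -3.25 ± 0.27 (adjusted p = 8.46e-06) and -5.33 ± 0.26 (adjusted p = 7.84e-08), also differed from each other (2.08 ± 0.42, adjusted p = 0.00995). For these 3 genes every line B library was above every line A library.

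MMP3 was at 25.9 and 32.9 CPM in line B against 2.34 and 6.5 in line A in experiment 1, and at 38.2 and 40.6 against 3.52 and 4.23 in experiment 2. Its log2 difference was -2.84 ± 0.23 (adjusted p = 6.16e-06) and -3.35 ± 0.22 (adjusted p = 8.64e-07), with no overlap. MMP3 overlaps WTAPP1 on the other strand, and whether counting used strand is not given in the sources used here. EPHA5 was at 34.5 and 16.5 CPM against 9.32 and 2.52, and at 54.6 and 42.9 against 11.9 and 5.36, again with every line B library above every line A library. RBFOX3 was at 8.06 and 4.85 CPM against 1.03 and 0.713 in experiment 1, and at 33.3 and 28.5 against 1.83 and 0.967 in experiment 2. Of 16 tested neural marker genes, 1 was called in line A and 4 in line B in experiment 1 and 0 and 5 in experiment 2, and the sum of 8 defining neural markers was 56.5 to 241 CPM in line A and 108 to 384 in line B; the part of neural transcripts in the RBFOX3 difference was not tested. TUBG2, a gamma-tubulin, went from 2.36 and 3.37 CPM in line B in experiment 1 to 16.4 and 18.6 in experiment 2, while line A stayed between 0.466 and 1.05. CALHM2, a calcium-regulated channel gene, showed the reverse kind of change: line B was even at 6.74 to 9.12 CPM, and line A went from 1.31 and 1.09 to a single read in experiment 2 against 682 in line B, a 524-fold difference with a counting interval of 93.7 to 20700. TRIML2 was at 14.1 and 43.1 CPM against 2.42 and 3.77, and at 6.42 and 11.9 against 0.495 and 1.01. BGN (the proteoglycan biglycan, which overlaps HAUS7 on the other strand), TNFRSF8 (CD30) and the pseudogene WFDC21P were called in line B in both experiments. IRX4, a homeobox gene, was called in both as well (-1.72 ± 0.44, adjusted p = 0.022, and -3.45 ± 0.44, adjusted p = 0.000167), but its experiment 1 call was lost without either 5-FU library of that experiment (-0.67 and -0.68).

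**Figure D2:**
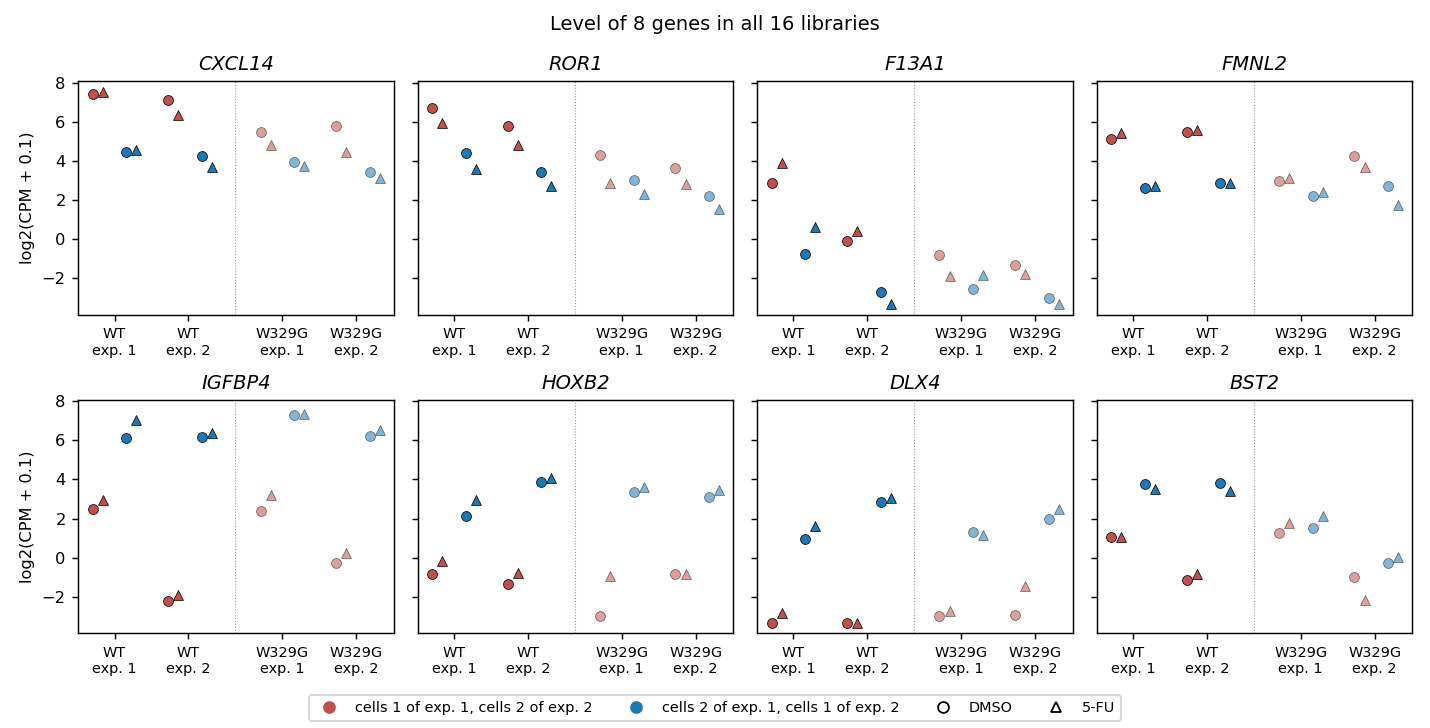
Level of 8 genes as log2(CPM + 0.1) on the y axis, 1 point per library, for wild-type libraries (full colour) and W329G libraries (pale) of each experiment; circles are DMSO, triangles 5-FU, red is line A or the W329G cells with the same numbers, blue is line B likewise. In the wild-type libraries red and blue are separate within each experiment in all 8 panels, and the line A points of IGFBP4 sit lower in experiment 2 (0.116 and 0.169 CPM) than in experiment 1 (5.5 and 7.59).

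Not every difference was of 1 size in the 2 experiments. The joined difference changed between experiments for 979 of 16667 genes (5.87%, edgeR's quasi-likelihood test of the interaction, adjusted p under 0.05). Genes that followed the labelled cell numbers were among them by construction, since a like sign by cell number is an opposite sign by joined line. ISG20, an interferon-induced exonuclease, was at 10.3 and 16.8 CPM in cells #1 against 4.05 and 6.12 in cells #2 in experiment 1, and at 4.72 and 4.1 against 1.92 and 2.27 in experiment 2. Both differences were called (1.40 ± 0.20, adjusted p = 0.000601, and -1.07 ± 0.22 as line A over line B, adjusted p = 0.00411), the latter only with both DMSO libraries of experiment 2 (-0.85 without either). ANKRD20A19P, an ankyrin-repeat pseudogene with close copies, and LRRC17, a leucine-rich repeat gene that overlaps FBXL13, were likewise higher in cells #1 in both experiments, and LIME1 and C20orf204, had positive differences by cell number that were called in experiment 1 and not in experiment 2. The LRRC17 call in experiment 1 (1.46 ± 0.33, adjusted p = 0.0101) was lost without either 5-FU library of that experiment (1.01 and 1.02).

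The 5 genes named for cells #2 had values higher in cells #2 in all 4 pairs, but 3 of them, PPIAP22, PTGFR and PCDHA10, were not called in experiment 1. GALNT15, a glycosyltransferase that starts O-linked glycans, was at 47.1 and 43.4 CPM in cells #2 against 32.3 and 20.8 in cells #1 in experiment 1, and at 32.3 and 32.6 against 6.55 and 8.58 in experiment 2. PTGFR, the prostaglandin F receptor, and the protocadherin PCDHA10 were called in experiment 2 (2.15 ± 0.17, adjusted p = 4.38e-06, and 1.81 ± 0.18, adjusted p = 3.56e-05) and not in experiment 1 (-0.26 ± 0.17, adjusted p = 0.38, and -0.43 ± 0.18, adjusted p = 0.149). The GALNT15 call in experiment 1 (-0.80 ± 0.17, adjusted p = 0.00721) was lost without either 5-FU library of that experiment (-0.54 and -0.55). The pseudogene PPIAP22 rested on 1 library in experiment 2: it was at 38.4 CPM in the DMSO library of line A and at 1.38 in its 5-FU library, against 0.732 and 0.82 in line B. Without either DMSO library the difference fell from 4.07 to 0.75. FLG, filaggrin, had 24 reads in line A and 2 in line B in experiment 2, a 15.6-fold difference with a counting interval of 3.88 to 136, and was higher in line B in experiment 1 (-1.56 ± 0.30, adjusted p = 0.00375).

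The 2 W329G lines, whose libraries are outside the joined wild-type set, had more genes called between them than the wild-type pair. Within experiment 1, 4227 of 16534 genes (25.6%) were called between them and within experiment 2, 4535 (27.4%). Of the genes called in both experiments, 2518 (15.2% of those tested) kept 1 direction only if the cell numbers were exchanged, out of 2530. Among the 16667 genes of the wild-type filter, a 2-fold difference in all 4 W329G pairs was seen for 353 with exchanged numbers and for 4 with labelled ones.

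Of the 162 members, 145 were tested in the W329G libraries and 62 were called in both experiments there, against 15.2% of all genes called in both with exchanged numbers. 53 of them pointed the same way as in the wild-type lines (16 higher in line A and 37 in line B, with cells #1 of experiment 1 set beside line A), 8 pointed the other way in both experiments, and the remaining gene changed direction between experiments. Of all 162 members, tested there or not, 37 differed at least 2-fold in all 4 W329G pairs in the wild-type direction. Among all 16667 genes, 353 did so in either direction with exchanged numbers. The 8 opposite genes were PRB2, PCDHB7, KRT14, MFAP5, BMP6, SLC7A3, F2RL2 and SLITRK2. IGFBP4 was at 5.2 and 9.26 CPM in W329G cells #1 against 156 and 164 in W329G cells #2 in experiment 1, and at 0.737 and 1.09 in cells #2 against 73.8 and 92.7 in cells #1 in experiment 2. So the low and high IGFBP4 levels recurred in 1 W329G line each, with the numbers again exchanged.

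Genes of the extracellular matrix were divided between the lines, as were called genes of all kinds. All-gene shares, to be set beside each list count here and below, were 6.87% in line A and 5.2% in line B in experiment 1. In experiment 2 they were 7.34 and 8.7%. Of 53 tested matrix and adhesion genes, 13 were called higher in line A and 11 in line B in experiment 1, and 7 and 15 in experiment 2, with a median log2 difference of -0.09 and then -0.16 (all genes, 0.03 and 0). With 1 library left out, the counts of experiment 1 moved between 3 and 14 in line A and between 3 and 19 in line B, those of experiment 2 between 6 and 8 and between 10 and 19, and the median of experiment 1 was 0.15 without either DMSO library of that experiment. COL1A2, COL7A1, COL11A1, THBS1 and ITGB3 were called in line A in both experiments, and COL1A1, COL12A1, BGN and ITGA5 in line B. The COL1A2 level was low, at most 8.93 CPM in line A and 2.79 in line B. The calls of COL7A1, the anchoring fibril collagen, did not hold under DESeq2's test (adjusted p = 0.112 and 0.146). ITGB3, an integrin chain of the vitronectin receptor, was at 37.1 and 33.6 CPM in line A against 14.1 and 11.2 in experiment 1, and at 20.5 and 17.2 against 7.12 and 2.64 in experiment 2, fully apart (1.49 ± 0.22, adjusted p = 0.000624, and 2.06 ± 0.23, adjusted p = 6.25e-05). COL1A1 was at 4030 and 6280 CPM in line A against 6010 and 9030 in line B, and at 3000 and 3860 against 5410 and 4810. Its difference of -0.55 ± 0.13 (adjusted p = 0.0135) and -0.58 ± 0.13 (adjusted p = 0.00738) lay inside the range of levels across treatments and experiments, and each call was lost without either DMSO library of its experiment (-0.52 and -0.32). THBS1, thrombospondin-1, differed more in experiment 2 (1.64 ± 0.14, adjusted p = 6.98e-06) than in experiment 1 (0.47 ± 0.13, adjusted p = 0.032), where the call was lost without any 1 library of that experiment (0.30 to 0.64).

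COL6A2, a type VI collagen chain on chromosome 21, differed between the lines in 1 experiment. It was at 270 and 350 CPM in line A and 283 and 401 in line B in experiment 1, and at 126 and 171 against 540 and 463 in experiment 2. The difference was -0.13 ± 0.16 (adjusted p = 0.666) and then -1.77 ± 0.16 (adjusted p = 1.68e-05), and the change between experiments was called (1.63 ± 0.22, adjusted p = 0.00126). Among 15 bone-cell genes, 3 were called in line A and 2 in line B in experiment 1, and 4 and 3 in experiment 2. The line B counts moved between 0 and 2 and between 1 and 3 with 1 library left out. TNFRSF11B (osteoprotegerin, the decoy receptor that restrains osteoclasts) was at 81.4 and 176 CPM in line A against 11.5 and 24.4 in line B in experiment 1, and at 12.5 and 20.7 against 6.2 and 13.6 in experiment 2. It was called in both, with a larger difference in experiment 1 (2.84 ± 0.16 against 0.80 ± 0.16, interaction adjusted p = 0.000355). RUNX2, the master regulator of bone cells, was called in line A in experiment 2 (0.64 ± 0.14, adjusted p = 0.00577) and not in experiment 1 (0.39 ± 0.14, adjusted p = 0.0947).

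Signalling ligands and receptors were called on both sides, as were all genes (6.87 and 5.2% in lines A and B in experiment 1, 7.34 and 8.7% in experiment 2). Of 20 tested TGF-beta and BMP genes, 4 were called in line A and 5 in line B in experiment 1, and 5 and 2 in experiment 2. The line B counts moved between 0 and 5 and between 0 and 3 with 1 library left out, and the line A counts between 4 and 7 and between 5 and 6. INHBA, the activin A subunit, was at 167 and 361 CPM in line A against 70.9 and 124 in line B in experiment 1, and at 130 and 134 against 49.3 and 48.3 in experiment 2, with differences of 1.39 ± 0.14 (adjusted p = 3.56e-05) and 1.44 ± 0.14 (adjusted p = 2.63e-05). Every line A library was above every line B library. BMP4, a bone morphogenetic protein, was at 113 and 150 CPM against 34.8 and 37, and at 78.5 and 112 against 50.6 and 58.8, also without overlap. PMEPA1, a TGF-beta-induced feedback inhibitor, was called in line A in both experiments (1.66 ± 0.13, adjusted p = 5.95e-06, and 0.68 ± 0.13, adjusted p = 0.00284).

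Of 28 tested WNT pathway genes, 8 were called in line A and 1 in line B in experiment 1, and 3 each way in experiment 2, at medians of 0.07 and 0.02. With 1 library left out, line A counts moved between 5 and 9 and between 2 and 4, and line B counts between 0 and 4 and between 3 and 5. WNT5B, a WNT ligand whose gene overlaps FBXL14, was called in line A in both experiments (1.67 ± 0.22, adjusted p = 0.000243, and 1.17 ± 0.23, adjusted p = 0.00296), as was LEF1, the transcription factor partner of beta-catenin (1.02 ± 0.18, adjusted p = 0.00236, and 1.29 ± 0.18, adjusted p = 0.000267). The LEF1 call in experiment 1 was lost without either DMSO library of that experiment (0.98). AXIN2, a feedback target of beta-catenin, was at 15.6 and 22.4 CPM against 7.61 and 9.53 in experiment 1 (1.13 ± 0.18, adjusted p = 0.00107), and at 22.9 and 26.1 against 29.5 and 22.6 in experiment 2 (-0.08 ± 0.17, adjusted p = 0.8). The lines thus separated for AXIN2 in experiment 1 and overlapped in experiment 2 (interaction 1.21 ± 0.25, adjusted p = 0.0104). Among 30 surface receptors, 3 and 2 were called in lines A and B in experiment 1 (all genes, 6.87 and 5.2%), and 5 and 8 in experiment 2 (all genes, 7.34 and 8.7%). With 1 library left out, the counts of experiment 1 moved between 2 and 5 in line A and between 1 and 6 in line B, and those of experiment 2 between 4 and 6 and between 6 and 12. MET, the hepatocyte growth factor receptor, was at 89 and 99.8 CPM in line B against 29.7 and 42.7, and at 170 and 196 against 75.6 and 71.9 (-1.40 ± 0.15, adjusted p = 5.87e-05, and -1.31 ± 0.15, adjusted p = 6.81e-05). AXL, the GAS6 receptor, was at 610 and 623 CPM in line B against 317 and 424, and at 546 and 557 against 325 and 358, with no overlap. Its call in experiment 1 (-0.75 ± 0.14, adjusted p = 0.00293) was lost without either DMSO library of that experiment (-0.56).

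Interferon-induced and antigen presentation genes were called in line B to different extents in the 2 experiments, as were all genes (867 and 1450 line B calls). Of 35 tested interferon-induced genes, 4 were called in line A and 3 in line B in experiment 1, and 1 and 10 in experiment 2. Leaving out 1 library moved the line B count between 1 and 6 in experiment 1 and between 6 and 10 in experiment 2. In experiment 2 the line B calls were BST2, IFI6, HERC5, IFIT2, IFIT3, ISG20, OAS1, OAS2, OAS3 and RSAD2, and of these BST2 and IFI6 were called in line B in experiment 1 too. The call of OAS2, at under 1 CPM, was lost without any 1 library of experiment 2 (adjusted p = 0.148 to 0.245) and with all 16 libraries in the fit (adjusted p = 0.051), and DESeq2 gave it no adjusted p. BST2 was at 13.7 and 11.5 CPM in line B against 1.97 and 2.01 in experiment 1, and at 13.8 and 10.4 against 0.349 and 0.459 in experiment 2, and its difference grew from -2.66 ± 0.23 (adjusted p = 1.11e-05) to -4.85 ± 0.27 (adjusted p = 1.4e-07, interaction adjusted p = 0.00357). IFI6, an interferon-induced mitochondrial protein, was at 36.2 and 46.1 CPM in line B against 26 and 32.6, and at 17.5 and 17.4 against 8.77 and 7.59. Its difference of -0.49 ± 0.15 in experiment 1 (adjusted p = 0.0443) did not hold under DESeq2's test (adjusted p = 0.0666), with all 16 libraries in the fit (adjusted p = 0.0609) or without any 1 library of that experiment, while that of experiment 2 was -1.10 ± 0.15 (adjusted p = 0.000309). Of 23 antigen presentation genes, none was called in experiment 1 and 5 were called in line B in experiment 2, the latter between 2 and 8 with 1 library left out.

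The windows before BST2 and IFI6 are shown because both genes were called in line B in each experiment and both carry the core of an interferon-stimulated response element. The motif searched was GAAANNGAAA on both strands, and capitals mark its matches, taken without overlap.
BST2, chr19:17405631-17405880, minus strand: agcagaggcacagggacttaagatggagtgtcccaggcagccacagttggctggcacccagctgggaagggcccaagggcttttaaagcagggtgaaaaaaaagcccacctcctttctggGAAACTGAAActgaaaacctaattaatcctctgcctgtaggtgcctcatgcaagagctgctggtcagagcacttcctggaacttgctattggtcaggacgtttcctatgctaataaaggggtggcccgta
IFI6, chr1:27672193-27672442, minus strand: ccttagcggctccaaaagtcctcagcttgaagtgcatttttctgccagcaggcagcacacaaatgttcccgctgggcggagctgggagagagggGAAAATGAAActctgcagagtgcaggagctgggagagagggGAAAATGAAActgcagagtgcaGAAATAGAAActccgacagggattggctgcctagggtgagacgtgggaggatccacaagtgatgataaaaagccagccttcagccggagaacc
Counted without overlap, BST2 has 1 match and IFI6 has 3, and 3.02% of the 35116 windows hold at least 1. In BST2 a further match begins within the marked one and runs past its end, and it is neither counted nor capitalised. A match describes the letters and does not show that a factor was bound.

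In the ATF4, NRF2 and hypoxia lists, most genes called in experiment 1 were higher in line B. Of 27 tested targets of ATF4, the factor that raises amino acid synthesis and transport, 17 were called in line B and none in line A in experiment 1, and 3 each way in experiment 2. The median difference was -0.73 in experiment 1 and -0.07 in experiment 2, and leaving out 1 library moved the line B count between 6 and 18 in experiment 1 and between 1 and 9 in experiment 2. ASNS, asparagine synthetase, was at 224 and 159 CPM in line B against 137 and 77.1 in line A in experiment 1 (-0.88 ± 0.15, adjusted p = 0.00152), and at 104 and 42.4 against 127 and 62.8 in experiment 2 (0.42 ± 0.15, adjusted p = 0.066). SLC7A11, the cystine transporter, was at 107 and 67.1 CPM against 63 and 24.4 in experiment 1 (-1.10 ± 0.17, adjusted p = 0.00104), and at 93.7 and 29.7 against 97.1 and 38.3 in experiment 2 (0.21 ± 0.17, adjusted p = 0.438). Both were thus higher in line B in experiment 1 alone, and both differences changed between experiments (interaction adjusted p = 0.00301 for ASNS and 0.00653 for SLC7A11). Without either 5-FU library of experiment 1 neither was called there (-0.71 and -0.72 for ASNS, -0.76 and -0.77 for SLC7A11). ASNS and SLC7A11 were chosen after their values were seen.

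Of 27 tested NRF2 and antioxidant genes, 9 were called in line B and none in line A in experiment 1, and 7 and 1 in experiment 2, at medians of -0.26 and -0.33. Leaving out 1 library moved the line B counts between 2 and 12 in experiment 1 and between 7 and 11 in experiment 2. FTL and FTH1, the ferritin chains, were called in line B in both. FTL was at 1130 and 1280 CPM in line B against 721 and 751 in line A, and at 1120 and 1120 against 669 and 642, with no overlap (-0.71 ± 0.12, adjusted p = 0.00207, and -0.78 ± 0.12, adjusted p = 0.000776). The FTL call in experiment 1 was lost without either 5-FU library of that experiment (-0.64 and -0.65). TXNRD1, thioredoxin reductase, chosen after its values were seen, was called in experiment 1 only (-1.07 ± 0.14, adjusted p = 0.00021, and -0.32 ± 0.13, adjusted p = 0.126, interaction adjusted p = 0.0335). Of 28 hypoxia genes, 8 were called in line B and 2 in line A in experiment 1, and 5 and 1 in experiment 2, and the line B counts moved between 4 and 13 and between 4 and 8 with 1 library left out. BNIP3, a mitophagy receptor, was called in line B in both (-1.42 ± 0.18, adjusted p = 0.000186, and -0.72 ± 0.17, adjusted p = 0.0106), and the glucose transporter SLC2A3 in line A in both (1.06 ± 0.14, adjusted p = 0.00027, and 0.67 ± 0.14, adjusted p = 0.0046). ALDOC, a brain-type aldolase, was at 13.9 and 15.6 CPM in line B against 7.06 and 10.4, and at 27.9 and 24 against 4.72 and 5.65, a difference that grew in experiment 2 (interaction 1.54 ± 0.26, adjusted p = 0.00362). Its experiment 1 call was lost without either DMSO library of that experiment (-0.59).

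Of 21 actin cytoskeleton and smooth-muscle genes, 5 were called in line B and 1 in line A in experiment 1, and 8 and 1 in experiment 2, at medians of -0.29 and -0.41. With 1 library left out the line B counts moved between 1 and 10 in experiment 1 and between 6 and 13 in experiment 2. FLNC, filamin C, was at 433 and 543 CPM in line B against 187 and 290, and at 503 and 558 against 215 and 389 (-1.06 ± 0.17, adjusted p = 0.00095, and -0.87 ± 0.17, adjusted p = 0.00269). No line A library reached a line B library. TAGLN, transgelin, which overlaps PCSK7, was called in line B with unequal size (-0.84 ± 0.17, adjusted p = 0.00548, and -1.80 ± 0.17, adjusted p = 2.1e-05), the former lost without either DMSO library of experiment 1 (-0.54 and -0.55).

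Clustered protocadherin genes, which give cells a surface identity through chosen promoters, were called on both sides. Of 52 tested, 9 were called in line A and 3 in line B in experiment 1 (all genes, 6.87 and 5.2%), and 8 and 10 in experiment 2 (all genes, 7.34 and 8.7%). With 1 library left out, the counts of experiment 1 moved between 2 and 10 in line A and between 3 and 4 in line B, and those of experiment 2 between 5 and 7 and between 6 and 10. PCDHB7 was at 8.79 and 14.1 CPM in line A against 2.23 and 3.53, and at 4.43 and 5.46 against 0.933 and 1.12. PCDHGB4 went the other way, at 4.47 and 6.08 CPM in line B against 1.44 and 2.26, and at 14 and 13.4 against 2.36 and 2.66. Both were called in both experiments, and within each experiment the lines did not overlap, although clustered protocadherins share exons and near-identical sequence, so single members are uncertain. Of 24 imprinted genes, which are expressed from 1 parental copy, 3 were called in line B and 1 in line A in experiment 1, and 5 and 1 in experiment 2, with line B counts of 0 to 4 and of 4 to 7 when 1 library was left out. PLAGL1, an imprinted zinc-finger gene, was at 21.9 and 20.9 CPM in line B against 14.8 and 13.8, and at 76.6 and 57.8 against 33.7 and 28.3. Its call in experiment 1 (-0.58 ± 0.15, adjusted p = 0.0215) was lost without any 1 library of that experiment (-0.56 to -0.60), while that of experiment 2 was -1.11 ± 0.14 (adjusted p = 0.000166). Of 34 HOX genes, 5 and 3 were called in lines A and B in experiment 1, and 1 and 4 in experiment 2, with line A counts of 0 to 6 and of 0 to 2 and line B counts of 1 to 3 and of 2 to 7 when 1 library was left out.

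The 13 tested mitochondrially encoded genes were all called in line A in experiment 1, at a median of 1.06, and none was called in experiment 2, at a median of 0.01. MT-ATP6, an ATP synthase subunit, was at 27000 and 37300 CPM in line A against 13700 and 14100 in line B in experiment 1, and at 22300 and 20400 against 20000 and 20200 in experiment 2 (interaction 1.11 ± 0.16, adjusted p = 0.00157). With the mitochondrial genes taken out of the totals, the line B calls of experiment 1 went from 1 to 3 in the WNT list and from 1 to 2 among p53 targets, and stayed at 17 in the ATF4 list. Of 30 G1/S genes none was called in experiment 1 and 1 in experiment 2. Of 30 G2/M genes 3 and 1 were called in lines A and B in experiment 1 (all genes, 6.87 and 5.2%), and 3 each in experiment 2 (all genes, 7.34 and 8.7%). The G2/M counts of line A moved between 0 and 12 in experiment 1 and between 2 and 13 in experiment 2 with 1 library left out, and those of line B between 0 and 2 and between 1 and 6. The G1/S counts reached 2 in line A in experiment 1, and 7 in line A and 5 in line B in experiment 2. MYC, the growth-promoting transcription factor, was at 96.5 and 100 CPM in line B against 49.5 and 36.7 in experiment 1 (-1.20 ± 0.15, adjusted p = 0.000218), and at 39.7 and 38.8 against 33.5 and 32.2 in experiment 2 (-0.26 ± 0.15, adjusted p = 0.271). MYC was therefore called in 1 experiment, and its difference changed between them (interaction adjusted p = 0.0202).

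**Figure D3:**
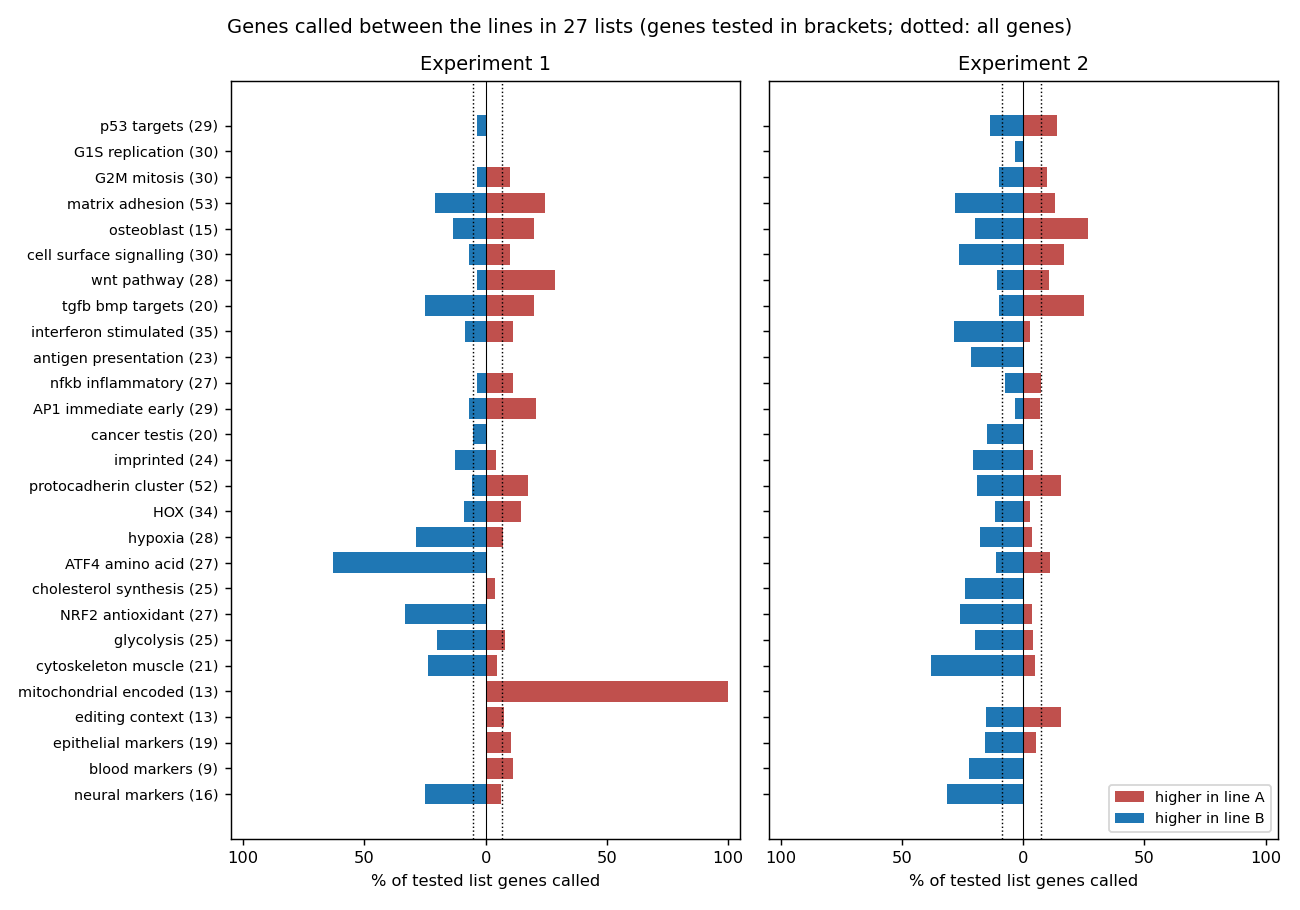
Share of the tested genes of each list (number tested in brackets) called higher in line A (red, to the right) and in line B (blue, to the left), 1 panel per experiment, with the share of all genes dotted. The ATF4 list has 17 line B calls in experiment 1 and 3 in experiment 2, and the mitochondrial list has 13 line A calls in experiment 1 and none in experiment 2.

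Line differences ran together along several stretches of the chromosomes. The run medians below are made from the same gene differences that gave the joining, so they describe where those differences lie and do not bear on the joining. Tested genes were ordered by GRCh38 position and taken in 662 runs of 25 neighbours. In 39 runs (5.89%) the median difference was beyond 0.2 log2 in 1 direction in all 4 pairs, 21 higher in line A and 18 in line B, against 2 runs (0.302%) when the cell numbers were followed as labelled. Run length and limit were chosen after the values were seen. Joined into stretches, these runs made 15, of which 6 held 2 or more runs, with 985 genes (5.91% of those tested). DNA copy number was not measured.

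The stretch with the most genes lay on chromosome 1, between 25.5 and 46.3 Mb, and was higher in line B. Its 275 genes had median differences of -0.48 (DMSO) and -0.46 (5-FU) in experiment 1 and -0.60 and -0.53 in experiment 2, and 69.5% of them were higher in line B in all 4 pairs. That share follows in part from the choice of runs and is given beside 15.1% for all genes as a description. In experiment 1, 104 of them were called in line B and 2 in line A, and in experiment 2, 127 and 1. These counts follow in part from that choice too. Of all genes, 5.2 and 6.87% were called in lines B and A in experiment 1, and 8.7 and 7.34% in experiment 2. In the W329G libraries, with numbers exchanged, the same medians were -0.14 to -0.04. IFI6, described above, the p53 target SESN2 and the mitotic activator CDC20 lie in this stretch. Next to it on the same chromosome, 101 genes between 51.4 and 75.8 Mb and 225 genes between 84.5 and 145 Mb were higher in line A, with medians of 0.33 to 0.64 and of 0.32 to 0.61 over the 4 pairs. ROR1 lies in the former, and its own difference of more than 2 log2 units is well beyond the median there.

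Chromosome 12 held line A stretches at 3.08 to 6.47 Mb and at 8.64 to 13 Mb, with medians of 0.27 to 0.53 and 0.44 to 0.73. Chromosome 17 held 4 line B stretches between 34.3 and 50.4 Mb, with medians from -0.805 to -0.217. DLX4, HOXB2, TUBG2 and COL1A1 lie in them, while IGFBP4 and EPOP lie nearby but outside. In these chromosome 17 stretches the medians of the W329G lines were also at or below 0 with exchanged numbers, from -0.69 to 0. On chromosome 6, 25 genes between 0.142 and 4.96 Mb were higher in line B (medians -0.83 to -0.54) and 50 genes between 26 and 28.2 Mb were higher in line A (0.34 to 0.44), the latter a region that holds a histone gene cluster. Of the 162 members, 19 lay in a stretch higher in the same line, 1 in a stretch higher in the other line and 142 outside.

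**Figure D4:**
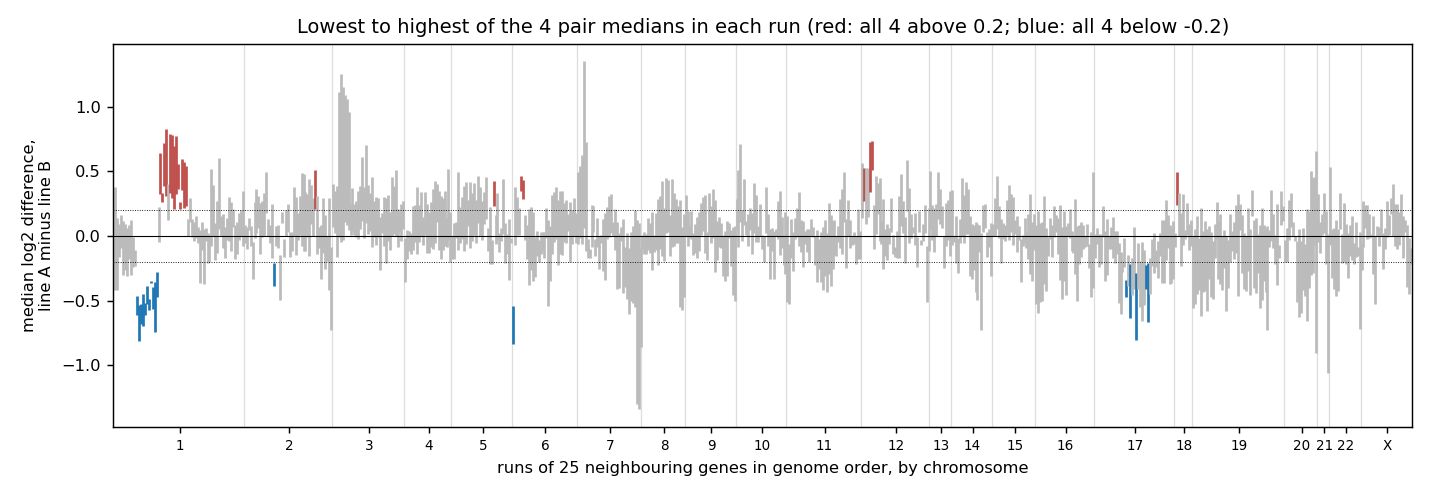
Each vertical bar is a run of 25 neighbouring genes in genome order and spans the lowest to the highest of its 4 pair medians (log2, line A minus line B); red bars lie above 0.2 and blue bars below -0.2 in all 4 pairs. Chromosome 1 has a block of blue runs followed by red ones, and long grey bars on chromosomes 3 and 7 are runs that differed in experiment 2 and not in experiment 1.

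Other stretches differed in 1 experiment only, by limits of 0.4 in both pairs of one experiment and below 0.2 in those of the other, chosen after the values were seen. On chromosome 3, 75 genes between 14.5 and 36.9 Mb had medians of 1.16 and 0.92 (higher in line A) in experiment 2 and of -0.02 and 0.01 in experiment 1. In experiment 2, 55 of these genes were called in line A and 1 in line B. Counts of calls in this paragraph follow in part from the choice of stretches, made from the same libraries. Of all genes, 7.34% were called in line A and 8.7% in line B in experiment 2. On chromosome 7, 75 genes between 5.9 and 24.8 Mb were higher in line A in experiment 2 (0.71 and 0.50), and 66 genes between 144 and 159 Mb were higher in line B (-1.20 and -0.88), with 51 called in line B and none in line A, while the experiment 1 medians were between -0.05 and 0.04. On chromosome 21, 25 genes between 43.4 and 45.5 Mb had medians of -1.06 and -0.91 in experiment 2 and of 0.01 and 0.02 in experiment 1. On chromosome 10, 25 genes between 6.14 and 13.5 Mb were higher in line A in experiment 1 (0.46 and 0.51) and not in experiment 2 (0.10 and -0.08).

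MDM2 and its fellow p53 target CDKN1A did not pass the test between the lines, which does not show that they are equal. MDM2, which overlaps CPM on the other strand, was at 41.4 and 200 CPM in line A and 46.2 and 189 in line B in experiment 1, and at 80.4 and 237 against 74.8 and 290 in experiment 2 (-0.04 ± 0.15, adjusted p = 0.924, and -0.09 ± 0.15, adjusted p = 0.702). CDKN1A, the p53-induced cell-cycle inhibitor p21, was at 116 and 837 CPM against 164 and 1050, and at 81.8 and 379 against 104 and 426 (-0.41 ± 0.13, adjusted p = 0.0564, and -0.26 ± 0.13, adjusted p = 0.201). In all 4 cultures the 5-FU library was far above the DMSO library for MDM2 and CDKN1A, and the line difference did not pass. Of 29 tested p53 targets, 1 was called in line B in experiment 1 (all genes, 5.2%), and 4 each way in experiment 2 (all genes, 7.34% in line A and 8.7% in line B). With 1 library left out, line A counts moved between 0 and 4 and between 1 and 7, and line B counts between 0 and 5 and between 3 and 10. SESN2, a stress-induced regulator of mTORC1, was the 1 target called in line B in both experiments, at 24.7 and 83.4 CPM against 12 and 60.3, and at 24.5 and 57.3 against 9.96 and 31.5. Its call in experiment 1 (-0.73 ± 0.17, adjusted p = 0.0139) was lost without either DMSO library of that experiment (-0.47), and in experiment 2 the difference was -1.07 ± 0.17 (adjusted p = 0.000896). GDF15, a stress-induced cytokine, was at 2.56 and 14.4 CPM in line B against 0.379 and 3.41 in line A in experiment 2 (-2.25 ± 0.22, adjusted p = 2.69e-05), and at 7.73 and 73.2 against 6.74 and 45.3 in experiment 1 (-0.48 ± 0.18, adjusted p = 0.104). MDM4, an MDM2 relative that inhibits p53, was called in line A in both experiments (0.57 ± 0.15, adjusted p = 0.0259, and 0.53 ± 0.15, adjusted p = 0.0271). The experiment 1 call was lost without any 1 library of that experiment (0.37 to 0.78). The experiment 2 call was lost without either DMSO library of that experiment (0.45). It was also lost in edgeR's test without any 1 library of experiment 1 (adjusted p = 0.0874 to 0.09) and with experiment 2 fitted alone (adjusted p = 0.0787).

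The response to 5-FU did not separate the lines at this number of libraries. All 29 p53 targets were higher under 5-FU in 3 of the 4 cultures and 27 were in line A of experiment 2. The mean log2 response was 1.80 in line A and 1.57 in line B in experiment 1, and 1.32 in line A and 1.37 in line B in experiment 2. The mean difference of responses between the lines was 0.09, with an exact two-sided permutation p of 1, and 2 cultures against 2 cannot give a p below 0.333. CDKN1A rose by 2.85 and 2.68 log2 units in lines A and B in experiment 1 and by 2.21 and 2.04 in experiment 2, and MDM2 by 2.27 and 2.03 and then by 1.56 and 1.95, as a description of 1 DMSO and 1 5-FU library per culture. The experiments thus lay farther apart than the lines for CDKN1A.

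**Figure D5:**
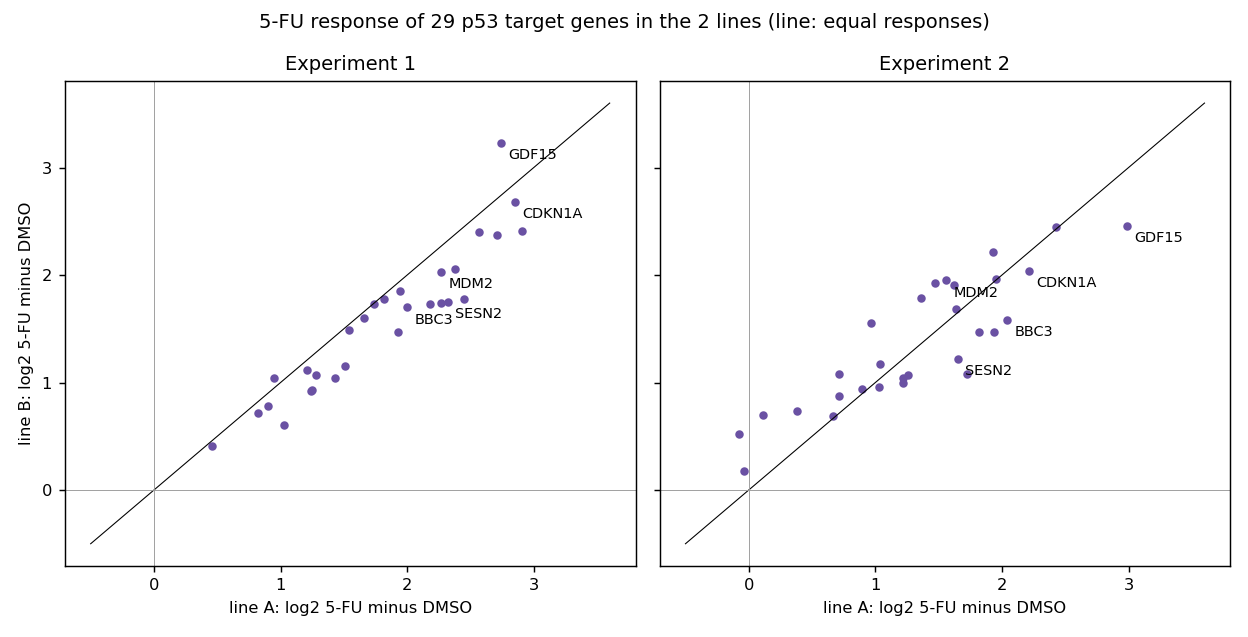
Log2 response to 5-FU (5-FU library over DMSO library) of 29 p53 targets in line A on the x axis and line B on the y axis, 1 panel per experiment, with the diagonal marking equal responses. Points lie close to the diagonal and above 0 on both axes but for 2 genes of line A in experiment 2, with mean responses of 1.8 against 1.57 and of 1.32 against 1.37.

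Across all genes, edgeR's quasi-likelihood interaction test called 0 of 16667 responses (0%) as different between the joined lines, where 155 had an unadjusted p under 0.05 and DESeq2 called 3. For the labelled lines it called 0 as well, with 127 at an unadjusted p under 0.05 and 3 called by DESeq2. With each line and experiment as a replicate block the joined lines differed in 16 responses (0.096%), 3 higher and 13 lower in line A. Of these, 11 belong to the gut epithelial list, among them the sucrase-isomaltase gene SI and the trefoil factor TFF1. The 5-FU minus DMSO value of TFF1 was -2.99 log2 units in line A and 2.27 in line B in experiment 1 and 0 in both in experiment 2, and the part of the gut reads in these calls was not tested beyond this count. The labelled lines gave 22 calls under the same block, 3 higher and 19 lower. Across genes, 5-FU responses correlated at 0.466 and 0.518 between the 2 lines of an experiment and at 0.395 and 0.434 between the experiments within a joined line, as a description over genes whose libraries share an experiment.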

How the data were processed

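Libraries of poly-A RNA were TruSeq libraries from RNeasy extracts, as the labels' protocols state. Deposited were raw read counts per gene, 1 set per experiment: Ensembl gene identifiers with coordinates in experiment 1 and gene symbols in experiment 2. Of the aligner, counter, annotation and strand setting, none is given in the sources used. The genome build hg19 is named per the submitters' processing notes, whereas 96.3% of 56898 genes in the experiment 1 file have the start and end of GENCODE 29 on GRCh38, so positions printed here are GRCh38.

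The 57500 and 28890 genes of the 2 experiments were matched by symbol, 28448 directly and 276 by an older symbol, with 9 ambiguous symbols left out. Totals of wild-type libraries were 24715999 to 56877328 reads. edgeR 4.0.16 in R 4.3.3 was used with TMM scaling, its filter on low counts, the quasi-likelihood test and Benjamini-Hochberg adjustment over 16667 genes at 0.05. The fit of the 8 wild-type libraries had a mean per experiment and treatment and a line term per experiment. The experiments were thereby tested separately but share 1 estimate of spread, with 1 culture per line, treatment and experiment. Nothing in the labels says that the DMSO and 5-FU cultures of a line were independently derived, so the p-values rest on library-to-library spread alone, which may be technical. CPM use the TMM-scaled totals, and pair differences are log2 CPM with a prior count of 2. Counting intervals of single genes are exact 95% intervals and cover counting error only.

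Replicate numbers pair the DMSO and 5-FU cultures of a line: line differences under DMSO and 5-FU correlated at 0.485 and 0.601 across genes. On counts simulated for the experiment 1 line comparison, 200 of 16667 genes were changed. The test recovered 76 of 100 genes changed 2-fold and 91 of 100 changed 4-fold, with 15 false calls. Genes were named by rule: MDM2 and CDKN1A always; the 15 largest joined differences each way at 5 CPM or more with 4 pair differences of 1 sign; the 5 largest each way for the labelled lines; and up to 3 genes each way for each of 27 lists. Not every gene that the rule allows is described, and exceptions are stated; some results are not reported here. The members, the gene lists and the joining were chosen with earlier results of these data known. Alternatives were other size factors, DESeq2 1.42.0, no filter, a fold limit, mitochondrial genes left out, other fits and each library left out, and, chosen after seeing the data, a GC trend removed. Promoter windows are from RefSeq on GRCh38.p14.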

Additional observations from a re-analysis of the deposited data

Results flagged for a closer look

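Among 172 groups of 4 wild-type libraries of 1 treatment, 13 had a library far from the other 3. The gap required is one that chance gives in about 1 in 20 groups of 4 like libraries. Each group here mixes 2 lines and 2 experiments, and many of the genes were named for a line difference. That rate is therefore no reference for the 13. The line A libraries of experiment 1 stood highest for F13A1 (7.15 CPM with DMSO and 14.7 with 5-FU), CCR1 (9.12 with DMSO), SHISA2 (9.69 with 5-FU), KRT14 (51.4 with 5-FU), TNFRSF11B (81.4 and 176) and PMEPA1 (1140 with 5-FU). The line B libraries of experiment 2 stood highest for RBFOX3 (28.5 CPM with 5-FU), TUBG2 (16.4 with DMSO and 18.6 with 5-FU) and PEG10 (34.3 with 5-FU). The line B library of experiment 1 stood highest for MYC (100 CPM with 5-FU).

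The line difference changed between experiments, by edgeR's quasi-likelihood interaction test, for 34 of 86 genes described here or allowed by the naming rule. Values are log2, experiment 1 minus experiment 2. For line B genes a positive value means a wider gap in experiment 2: IGFBP4 5.15, CALHM2 5.83, TUBG2 2.95, BST2 2.20, HOXB2 2.08, GDF15 1.77, RBFOX3 1.63, COL6A2 1.63, ALDOC 1.54 and TAGLN 0.957. The line B gap was wider in experiment 1 for WFDC21P (-1.53), MYC (-0.945), SLC7A11 (-1.31), ASNS (-1.30) and TXNRD1 (-0.75). For line A genes the gap was wider in experiment 2 for IGFL3 (-3.60), HTR2A (-2.46), TNFAIP6 (-1.59) and THBS1 (-1.16), and wider in experiment 1 for TNFRSF11B (2.04), AXIN2 (1.21), MT-ATP6 (1.11), BMP4 (1.08) and PMEPA1 (0.974).

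The 10 genes named for the labelled lines were chosen for opposite signs by joined line, so their values are a description: ANKRD20A19P 4.67, LRRC17 3.10, LIME1 2.90, C20orf204 2.80 and ISG20 2.47, and FLG -5.20, PPIAP22 -4.34, GALNT15 -2.91, PTGFR -2.41 and PCDHA10 -2.23.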

How the results depend on the processing

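Counts of called genes depended on the number of libraries and on the fit. In experiment 1 the 2012 calls became 757 with a fold limit of 2, 3801 with that experiment fitted alone and 591 to 3865 with 1 library left out; in experiment 2 the 2674 calls became 932 with the fold limit and 1826 to 5277. The 1529 calls of the joined lines became 491 with the fold limit, 2343 with all 16 libraries, 238 with DMSO and 4 with 5-FU libraries alone, 5 with no experiment term and 773 to 1310 with 1 library left out; with the replicate block they were 1202. The labelled lines had 0 calls, 115 with DESeq2 and 0 with the replicate block. The response differed in 0 genes between the joined lines, 3 with DESeq2, 9 with no filter, 16 with the replicate block and 0 to 2 with 1 library left out; for the labelled lines it was 3 with DESeq2 and 22 with the block. Of the joined 2-fold genes, 162 became 335 (DMSO pairs), 332 (5-FU pairs) and 224 to 272 (1 library left out); the 13 labelled ones became 124, 62 and 29 to 55, and 27 with a prior count of 0.5. The 39 runs stayed between 30 and 50. Of 153 calls of single genes, 117 held in every setting and 146 in all settings that kept all libraries together. Some values not called in the main fit were called in another setting, so a gene that was not called is not settled as equal. Signs turned for 3 uncalled values when 1 library was left out: MDM2 ranged from -0.16 to 0.079 in experiment 1 and from -0.289 to 0.104 in experiment 2, and AXIN2 from -0.41 to 0.21 in experiment 2. The causes were not tested, except that fewer libraries or pairs enter the settings that leave some out. In the fit within each experiment, a library left without its partner of the same treatment adds nothing to the line difference of that experiment. Leaving out either library of a pair is thus the same check made again, and that difference then rests on 1 library per line. In the DMSO pair of experiment 2, differences correlated with the GC share of transcripts at -0.452 across genes, against -0.101 to 0.0511 in the other pairs. With the GC trend of each pair removed, 162 joined genes passed the 2-fold limit, 69 higher in line A and 93 in line B against 73 and 89. The calls within each experiment, the change between experiments and the list counts were not refitted without the trend. Its part in them was not tested. With 1 culture per line, treatment and experiment, differences can be missed, also at 2-fold and above. On the simulated counts, 76 of 100 genes changed 2-fold and 91 of 100 changed 4-fold were recovered. Only 200 of 16667 genes were changed there, whereas 12.1 and 16% were called in the 2 experiments. The adjustment of p depends on that share, so the recovery is not a rate for the data.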
